A study of Mus musculus with 24 samples.

Results

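The 100 most abundant long intergenic noncoding RNAs (lincRNAs) of mouse islet cells were described across 24 mRNA sequencing libraries. Members were the rows of the deposited gene table with the biotype lincRNA, without Meg3 and H19, ranked by their count summed over all libraries. They were 100 of 5627 such rows, of which 2833 had at least 1 count, among 41549 genes in all. Members were chosen by their summed counts, so their levels are a description, while the comparisons between groups did not enter the choice. At the edge of the rule Erdr1 was inside with 2327 counts and 2810414N06Rik was outside with 2324 counts.

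Dispersed pancreatic islet cells of wild-type C57BL/6NRj mice of both sexes, 12 to 14 weeks old, were transfected with 50 pmol of an antisense oligonucleotide (ASO). The αGlu ASO blocks a fragment of the 5′ end of the glutamate tRNA (CTC anticodon), and the Ctr ASO is its control. Cells then received 0.5 mM palmitate (PA), a saturated fatty acid, bound to bovine serum albumin, or 0.75% albumin alone (BSA), both in medium with 1% serum. Each ASO was combined with each medium, which gave 4 groups (named by ASO and medium, such as Ctr BSA) of 6 libraries, with 3 of each group in each of 2 batches that the labels name without saying what a batch is. The sample numbers run in 6 sets of 4 consecutive numbers, each with 1 library of every group. The study states in general that its groups came from 1 animal or passage per replicate, while no label ties a library to a set, so fits by these sets are given as an alternative. No source used here gives the exposure time of these libraries. The comparisons ask which lincRNAs responded to PA, and whether the αGlu ASO changed them or their response.

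Most lincRNAs are transcribed by RNA polymerase II and are capped, spliced and polyadenylated like mRNAs, but they lack a long conserved reading frame. Some act in the nucleus: Malat1 collects in nuclear speckles, and the long form of Neat1 is the scaffold of paraspeckles. Others bind proteins or microRNAs in the cytoplasm, and some are the host transcripts from which microRNAs and small nucleolar RNAs (snoRNAs) are cut. Islet cells are also known to use lincRNA genes next to the genes of their transcription factors.

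Several members are known by what is written in their sequence, so those stretches are shown here, with transcript letters from GENCODE M21 (build GRCm38) and microRNAs from RefSeq (GRCm38.p6). Norad, listed as 2900097C17Rik (chr2:156388065-156392979, minus strand, 1 exon), is known for binding Pumilio proteins through many copies of the letters TGTANATA, which are in capitals in positions 2432 to 2468 of its transcript of 4915 bases.
Norad: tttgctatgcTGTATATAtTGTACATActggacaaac
It held 11 copies of these letters, and 1 of 3012 lincRNA transcripts of at least 1 kb held as many, namely Norad. Oip5os1 (Cyrano, chr2:119594297-119607502, plus strand) is known for an extended site for miR-7. In positions 2935 to 2959 of its transcript of 8300 bases, 21 of the 23 letters of miR-7a-5p could pair, and these are in capitals.
Oip5os1: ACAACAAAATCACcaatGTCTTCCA
The seed (bases 2 to 8) of the microRNA is in capitals.
mmu-miR-7a-5p: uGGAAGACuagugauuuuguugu
Bc1 (chr7:144914470-144914637, plus strand, 1 exon), a short cytoplasmic RNA of neurons and related cells that restrains translation, is shown whole with its runs of at least 5 A in capitals, since such runs can be caught by poly-A selection.
Bc1: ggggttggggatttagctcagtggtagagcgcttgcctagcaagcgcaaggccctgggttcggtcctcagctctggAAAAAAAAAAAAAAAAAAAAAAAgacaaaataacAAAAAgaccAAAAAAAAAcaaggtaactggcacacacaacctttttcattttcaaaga
Its longest run was 23 A in 168 bases.

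Of the 100 members, 10 held a microRNA hairpin and 4 held an annotated snoRNA within their borders. Mir670hg (chr2:94160636-94264918, minus strand) and Gm3294 (chr6:28981634-29028922, plus strand) both hold a hairpin that gives miR-129-5p, Mir670hg in an intron and Gm3294 in an exon. The mature sequences of Mir670hg follow with the seed in capitals, because this host rose with PA while Gm3294 did not pass the test.
mmu-miR-129-5p: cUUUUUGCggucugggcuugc
mmu-miR-129-2-3p: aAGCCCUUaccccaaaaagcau
mmu-miR-670-5p: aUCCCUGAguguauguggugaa
mmu-miR-670-3p: uUUCCUCAuauccauucaggagugu
A further seed was shared between hosts on different chromosomes, in miR-344d-3p and miR-344e-3p of A230057D06Rik and miR-410-3p of Mirg.
mmu-miR-344d-3p: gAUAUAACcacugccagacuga
mmu-miR-344e-3p: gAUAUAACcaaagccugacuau
mmu-miR-410-3p: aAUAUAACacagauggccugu
The exon of 6720427I07Rik carries 3 let-7 hairpins, whose 5p forms have 1 seed.
mmu-let-7a-5p: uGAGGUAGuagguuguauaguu
mmu-let-7f-5p: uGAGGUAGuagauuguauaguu
mmu-let-7d-5p: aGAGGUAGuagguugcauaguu
The libraries measured host transcripts with poly-A tails, and mature microRNAs and snoRNAs were not measured in them.

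Library totals ran from 18214719 to 35001979 counts, and every member had at least 10 counts in every library. The lowest count was 13, for Gm9926, and the median of the members' median counts was 206. All 100 members entered the tests of 15916 genes, so no member was lost to the filter on low counts. Ctr BSA replicate 1 stood apart: rRNA rows took 16.4% of its counts against at most 3.61% in any other library. It also had the lowest total, so results that rest on it are given with and without it. Markers of beta cells were abundant in all groups (summed level of 10 markers, 84084 to 152138 CPM, counts scaled to library size by TMM), as the labelled cell type requires, and none of the markers of the other islet and pancreatic cell types listed was at 0 in all libraries of a group.

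The members held 89.04% of all counts on lincRNA rows, 2551880 counts in total, and were unequal among themselves. Malat1 (chr19:5795690-5802672, minus strand) had 42.8% of the members' counts, and the 3 largest, Malat1, Neat1 and Norad, had 61.4%. Per length, in the deposited TPM values (counts scaled for gene length and library size), the order by median over all libraries was Malat1 at 677, Bc1 at 271, Norad at 198, Gm46620 at 140 and Gm49980 at 94.5. Malat1 ranged from 520 to 1284 TPM and did not overlap with Norad, which ranged from 120 to 223 TPM. Norad in turn overlapped with Bc1 (144 to 1851 TPM) and with Gm46620 (110 to 192 TPM), so these neighbours in the order were not separated. The median member had 8.50 TPM, 39 members had a median of at least 10 TPM, and the lowest was Gm9926 at 1.27 TPM.

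Neat1 and Malat1 lie in the same region of chromosome 19, but Neat1 was the eighth by TPM, at 48.6. Next in this order came AI480526 at 40.4 TPM, which starts 527 bases from Setd1b on the opposite strand. Gm27033 (chr5:147280720-147281263, plus strand, 1 exon) was the sixth at 67.8 TPM. It begins 4872 bases after the end of Pdx1, the transcription factor gene of the beta cell, on the same strand. Gm20554 (chr13:72626213-72628564, minus strand), 256 bases from the start of the alpha cell gene Irx2, was also a member, with medians of 2.89 to 3.92 CPM in the 4 groups.

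The spread between libraries of a group also differed between members. The coefficient of variation of the CPM, taken as the median over the 4 groups, was 17.7% for the median member, 7.59% for Norad and 94.5% for Gm9926. Each group holds libraries of both batches, so these values include the difference between batches. Gm42047 (chr8:121833247-121841178, plus strand) was uneven within every group, from 35.4 to 99.7 CPM in Ctr BSA and from 28.8 to 97.9 CPM in αGlu BSA. Its lowest libraries were replicates 21, 22, 23 and 24, which come from 4 different groups, at 28.8 to 37.6 CPM, and replicates 19 and 20 were the highest at 115 and 117 CPM. None of its comparisons passed the test, with log2 fold changes of 0.20 ± 0.30 (SE) for PA in Ctr and −0.51 ± 0.21 between batches (edgeR adjusted p = 0.0503). With the 6 sets as a block in the fit, the spread between sets was taken out and PA in Ctr was at 0.18 ± 0.07 (edgeR adjusted p = 0.0551).

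Some rows are not plain lincRNA genes. GENCODE M21 types 97 members as lincRNA, and types Gm47283 and Erdr1 as protein coding and Snhg15 as a processed transcript. RefSeq held 70 of the members, 61 as lncRNA, 7 as protein coding genes, among them Dbpht2, Gm32856 and Gm37494, and 2 as pseudogenes. The row 9130016M20Rik lies 1089 bases after the end of A1cf and carries the older symbol of that gene. Exon bases were shared with another counted gene by 19 members, 7 with a gene on the same strand and 12 with a gene on the opposite strand. No source used here says how reads on such bases were assigned, so the values of these rows are uncertain.

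**Figure D1:**
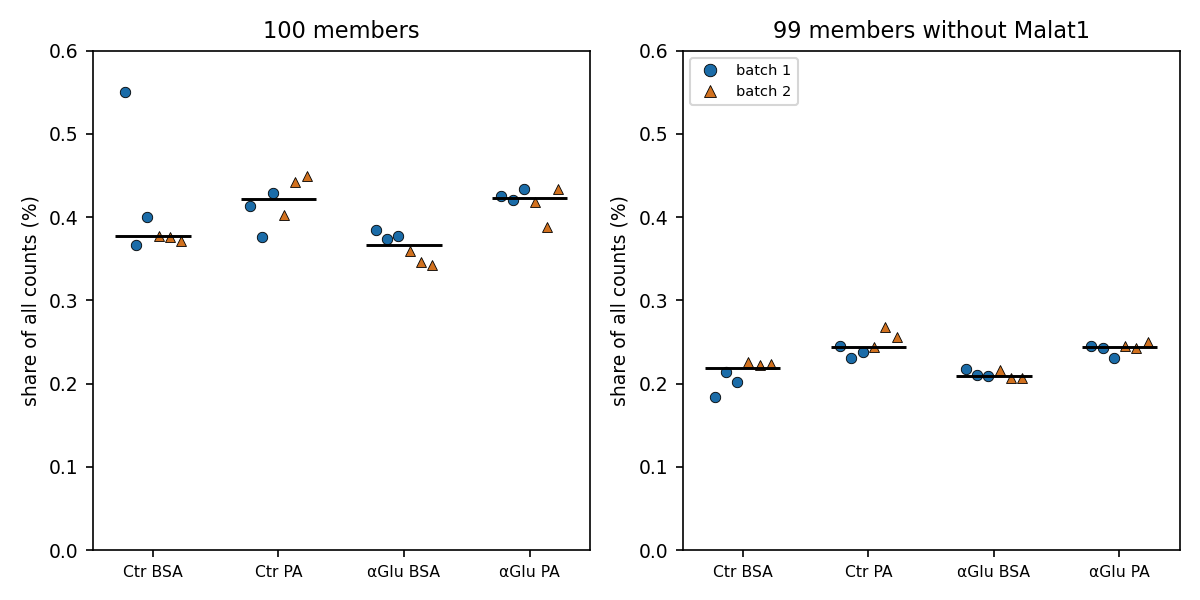
Share of all counts (percent) that fell on the lincRNA members in each library, by group, for all 100 members (left) and without Malat1 (right). Points are libraries (circles batch 1, triangles batch 2) and bars are group medians. Ctr BSA replicate 1 is the high point at the left (0.550%), and without Malat1 all PA libraries (0.231 to 0.268%) sit above all BSA libraries (0.185 to 0.226%).

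As a share of all counts, the members took 0.343 to 0.550%, with the highest value in Ctr BSA replicate 1, where Malat1 alone took 0.365% against at most 0.202% elsewhere. Group medians were 0.377% (BSA) and 0.421% (PA) for Ctr cells and 0.367% (BSA) and 0.423% (PA) for αGlu cells, and BSA and PA libraries overlapped. Without Malat1 the 12 BSA libraries held 0.185 to 0.226% and the 12 PA libraries 0.231 to 0.268%, with no overlap. Leaving out Neat1 as well brought the ranges to 0.158 to 0.199% and 0.180 to 0.214%, which overlapped, so the separation rested on Neat1. These shares are descriptions with no test.

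Members responded to PA in both directions. In Ctr cells 31 of the 100 members passed an adjusted p of 0.05 (edgeR quasi-likelihood test with Benjamini-Hochberg adjustment over all genes), 22 higher and 9 lower in PA, beside 30% of all 15916 genes tested (15.5% higher and 14.5% lower). In αGlu cells 23 members passed, 17 higher and 6 lower, beside 28.5% of all genes (14.4% higher and 14.2% lower). The members' totals were thus near or below the share of all genes. Their median log2 fold change was 0.07 in Ctr and 0.08 in αGlu cells, beside 0.01 and 0.01 for all genes. Among the 404 less abundant lincRNAs that were tested, 43 passed in Ctr (10.6%) and 38 in αGlu cells (9.41%), at lower counts. At an unadjusted p below 0.05, 38 members passed in Ctr (all genes 40.6%) and 38 in αGlu cells (39.1%), and with a fold above 2 these were 4 (5.91%) and 3 (5.57%). The groups did not overlap for 5 members in Ctr (all genes 5.82%) and 6 in αGlu cells (8.12%).

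The 2 PA comparisons use different libraries, but they are not independent. Both come from the same fit with a shared estimate of the spread, and libraries of a set deviated together. Of the members called, 18 passed in both, which is 58.1% of those called in Ctr and 78.3% of those called in αGlu cells. For all genes these shares were 70.5% and 74.05%. Of the 18, 15 were higher and 3 were lower in both comparisons, and 64 members passed in neither. With the sets as a block in place of batch, 34 members passed in Ctr (all genes 35.3%) and 30 in αGlu cells (34.1%), 30 and 23 of them called in both fits. Only Bc1 was lost, in Ctr cells (−1.04 ± 0.44, adjusted p = 0.0739). Gained in Ctr cells were A230057D06Rik, Erdr1, Gm16973 and Gm46620, and gained in αGlu cells were A230057D06Rik, Snhg12, 9130016M20Rik, 1700001L05Rik, Gm20939, Gm4316 and Gm49745. With each batch fitted alone, all 31 and all 23 called members kept their direction in both batches. They had been called on these same libraries, so this agreement was favoured in advance and is no separate support. Without Ctr BSA replicate 1 the counts were 28 and 26, with 27 and 23 of the called members remaining. Lost in Ctr cells were Bc1, Gm49745, D130017N08Rik (0.24, adjusted p = 0.0736) and Gm20300 (0.31, adjusted p = 0.0542).

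**Figure D2:**
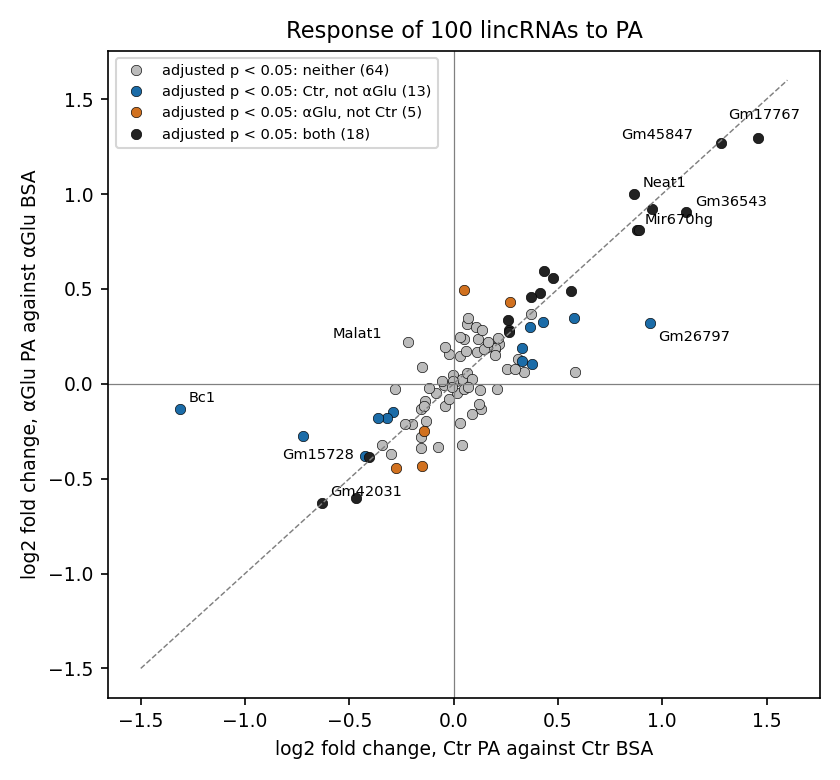
Log2 fold change of each of the 100 lincRNAs in PA against BSA, in Ctr cells (x axis) and in αGlu cells (y axis), coloured by the comparisons in which the edgeR adjusted p was below 0.05. Points on the dashed line have equal values; Gm17767 (1.46 and 1.30) and Gm45847 (1.28 and 1.27) are at the top right, and Bc1 is farthest to the left (−1.31, and −0.30 without Ctr BSA replicate 1).

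The 6 raised members of smallest p were the same in Ctr and αGlu cells: Gm17767, Gm45847, Neat1, Gm36543, Mir670hg and Gm34759. Gm17767 (chr1:51507086-51596718, minus strand, intergenic, up to 4 exons) had 6.64, 12.8 and 25.9 CPM as lowest, median and highest value in Ctr BSA, and 25.4, 33.1 and 59.0 CPM in Ctr PA. In αGlu cells it had 8.37, 13.5 and 21.2 CPM in BSA and 22.5, 33.1 and 42.9 CPM in PA. All αGlu PA libraries were above all αGlu BSA libraries, while in Ctr cells the highest BSA library (25.9 CPM, batch 2) passed the lowest PA library (25.4 CPM, batch 1), and within each batch the groups were separate. The log2 fold change was 1.46 ± 0.13 (SE; adjusted p = 1.24e-08) in Ctr cells and 1.30 ± 0.12 (adjusted p = 6.32e-08) in αGlu cells. Its nearest coding gene, Nabp1, 28661 bases away, codes for a single-stranded DNA binding protein and also rose, by 0.65 in Ctr and 0.54 in αGlu cells on the log2 scale.

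Gm45847 (chr7:123031415-123068305, plus strand, intergenic) had 2.64, 4.98 and 7.25 CPM in Ctr BSA and 8.49, 11.5 and 17.4 CPM in Ctr PA. In αGlu cells the values were 3.31, 4.67 and 6.30 CPM in BSA and 8.34, 11.1 and 15.9 CPM in PA. No PA library overlapped with a BSA library in either comparison. It rose by 1.28 ± 0.14 (adjusted p = 2.15e-07) in Ctr and by 1.27 ± 0.13 (adjusted p = 2.65e-07) in αGlu cells. Its nearest coding gene Rbbp6, 28858 bases away, fell in both, by 0.33 and 0.32. Part of its exons (12.7%) lie on a gene of low counts on the same strand, Gm45846.

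Neat1 (chr19:5824708-5845478, minus strand), whose long form is the paraspeckle scaffold, was the most abundant member that PA changed. It had 241, 289 and 317 CPM in Ctr BSA and 447, 496 and 642 CPM in Ctr PA. It had 226, 258 and 297 CPM in αGlu BSA and 418, 546 and 585 CPM in αGlu PA. Each PA library was above each BSA library, with log2 fold changes of 0.87 ± 0.09 (adjusted p = 2.93e-07) in Ctr and 1.00 ± 0.09 (adjusted p = 4.17e-08) in αGlu cells. Neat1 begins 4224 bases after the end of Frmd8 on the same strand, and Frmd8 fell in Ctr PA (−0.39, adjusted p = 0.0283) and was at −0.25 (adjusted p = 0.158) in αGlu PA. Short and long Neat1 cannot be told apart in counts per gene, so whether the long scaffold form rose is not known from these counts.

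Of 20 paraspeckle proteins, 3 rose and 6 fell in Ctr PA, and 3 rose and 5 fell in αGlu PA, beside 15.5% of all genes higher and 14.5% lower in Ctr and 14.4% and 14.2% in αGlu cells. The median log2 fold changes of the list were −0.00 and −0.01, beside 0.01 and 0.01 for all genes. Sfpq, which is needed for paraspeckles to form, fell by 0.15 in Ctr and by 0.13 in αGlu cells, and Taf15, an RNA-binding paraspeckle component, rose by 0.39 and 0.32.

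Gm34759 (chr15:12068248-12085197, minus strand, intergenic) had 5.86, 14.4 and 23.5 CPM in Ctr BSA and 15.7, 26.8 and 41.4 CPM in Ctr PA. In αGlu cells it had 9.13, 13.6 and 19.6 CPM in BSA and 16.4, 25.9 and 35.3 CPM in PA. Its ranges overlapped when batches were pooled, and it rose by 0.95 ± 0.15 in Ctr (adjusted p = 3.35e-05; 1.37 in batch 1 and 0.62 in batch 2) and by 0.92 ± 0.15 in αGlu cells (adjusted p = 4.58e-05). Gm36543 (chr10:25701410-25707943, minus strand) had medians of 2.51 and 5.11 CPM in Ctr and 2.55 and 4.72 CPM in αGlu cells. It rose by 1.12 ± 0.14 (adjusted p = 1.84e-06) and by 0.91 ± 0.14 (adjusted p = 2.28e-05).

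Mir670hg, the host of miR-129-2 and miR-670 shown above, had 2.58, 4.26 and 5.76 CPM in Ctr BSA and 4.63, 8.53 and 9.81 CPM in Ctr PA. It had 2.58, 4.53 and 6.15 CPM in αGlu BSA and 4.76, 7.49 and 10.3 CPM in αGlu PA. Both pairs of groups overlapped, and batch 2 libraries were the higher ones in BSA. It rose by 0.88 ± 0.14 (adjusted p = 3.1e-05) and by 0.81 ± 0.14 (adjusted p = 7.45e-05). Hsd17b12, an enzyme of fatty acid elongation 2672 bases away on the same strand, rose by 0.37 and 0.38. Gm3294, the other host of miR-129-5p, was at 0.07 ± 0.10 in Ctr (adjusted p = 0.641) and 0.06 ± 0.10 in αGlu cells (adjusted p = 0.698).

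**Figure D3:**
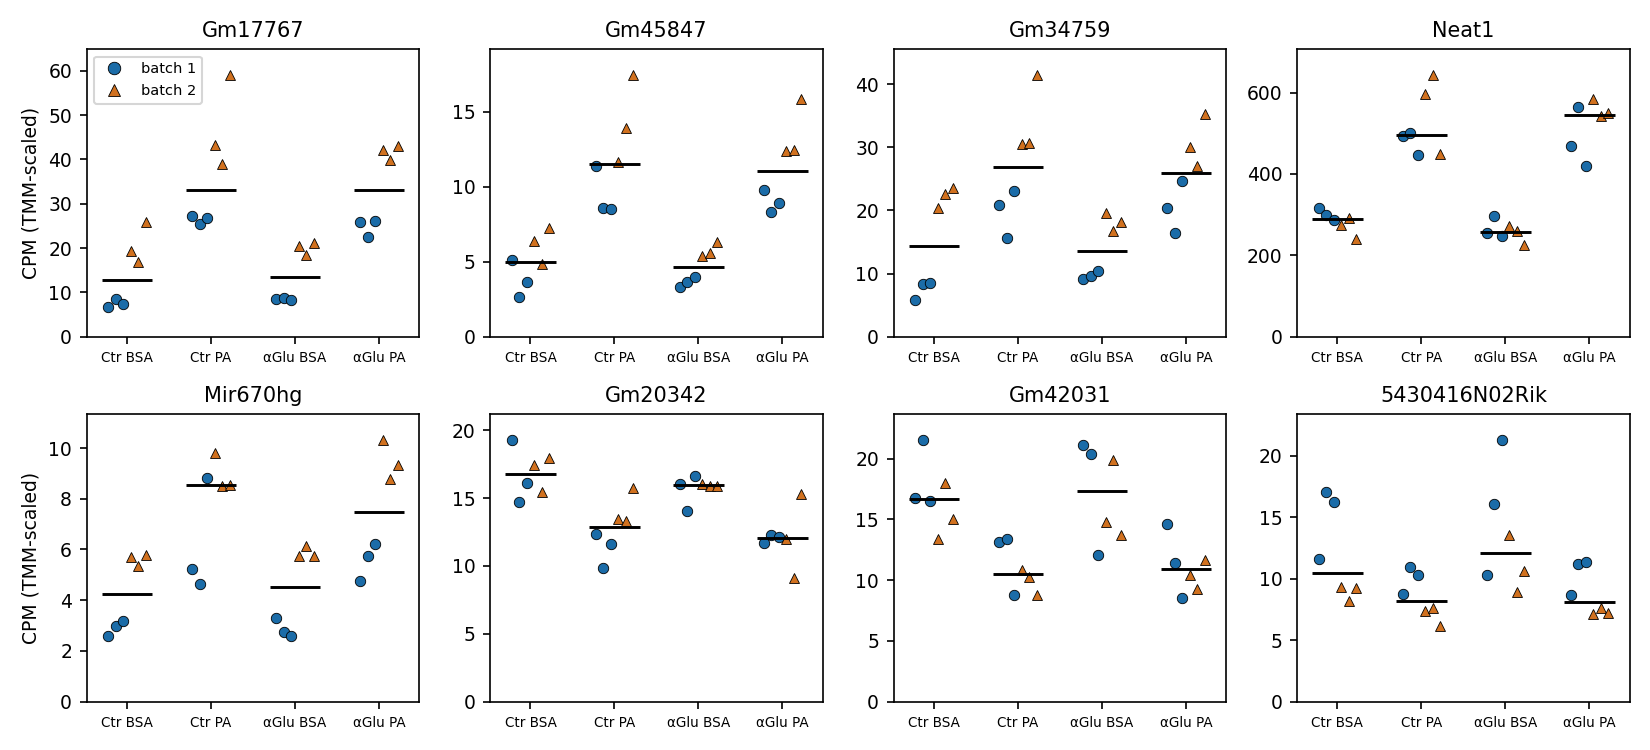
CPM (scaled by TMM, linear axes from 0) of 8 lincRNAs in each library by group, with circles for batch 1, triangles for batch 2 and bars at group medians. Gm17767, Gm45847, Gm34759, Neat1 and Mir670hg are higher in PA with both ASOs, and Gm20342, Gm42031 and 5430416N02Rik are lower; Gm17767, Gm34759 and Mir670hg are also higher in batch 2.

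The promoters of 60 members were in the RefSeq table (250 bases before to 50 after the start). Gm17767 and Mir670hg are shown because they rose with both ASOs, and Gm26797 because it had the smallest p in the test of the difference between the PA responses, which it did not pass after adjustment. Capitals mark matches on either strand. The E-box was searched as CACGTG, an element bound by basic helix-loop-helix factors. The AP-1 site was searched as TGANTCA, an element bound by Fos and Jun proteins. The TATA box was searched as TATAAA at any place in the window. In Mir670hg these letters lie near the end of the window, after the start.
Gm17767 promoter, chr1:51596669-51596968, minus strand: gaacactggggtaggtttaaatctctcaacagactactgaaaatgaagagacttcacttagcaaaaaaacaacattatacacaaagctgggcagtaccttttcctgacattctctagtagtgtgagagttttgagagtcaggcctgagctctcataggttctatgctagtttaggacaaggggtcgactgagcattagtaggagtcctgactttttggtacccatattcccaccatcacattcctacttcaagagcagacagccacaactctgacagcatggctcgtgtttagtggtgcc
Mir670hg promoter, chr2:94265054-94265353, minus strand: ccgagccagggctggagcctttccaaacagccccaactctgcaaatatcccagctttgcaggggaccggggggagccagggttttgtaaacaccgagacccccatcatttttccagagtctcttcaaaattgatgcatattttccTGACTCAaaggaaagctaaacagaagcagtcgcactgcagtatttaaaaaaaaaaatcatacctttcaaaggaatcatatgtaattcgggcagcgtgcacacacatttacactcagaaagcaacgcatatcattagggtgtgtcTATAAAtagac
Gm26797 promoter, chr9:122310879-122311178, minus strand: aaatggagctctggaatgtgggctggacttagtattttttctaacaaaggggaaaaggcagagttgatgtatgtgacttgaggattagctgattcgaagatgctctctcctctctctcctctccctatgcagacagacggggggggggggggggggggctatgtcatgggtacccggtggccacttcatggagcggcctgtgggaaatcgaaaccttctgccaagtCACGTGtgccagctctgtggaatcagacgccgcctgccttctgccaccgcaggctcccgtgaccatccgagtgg
An E-box was in 8 of the 60 members' promoters, beside 8.09% of all 27025 promoters of the table. An AP-1 site was in 3 (all promoters 8.97%) and a TATA box in 8 (15.7%). The PPAR response element, known as a direct repeat, was searched because fatty acids are ligands of PPARs, and 0 of the 60 windows held it, beside 0.0481% of all promoters. With an element this rare, 60 windows would be likely to hold none, so nothing follows from the 0.

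The other members raised in both PA comparisons were Gm32856, Gm30648, 4632428C04Rik, Gm30173, 1810008I18Rik, Snhg18, 5330434G04Rik, D130017N08Rik and 4933404O12Rik. Gm30648 (chr3:134199948-134213238, plus strand) rose by 0.56 ± 0.11 (adjusted p = 0.000541) and by 0.49 ± 0.11 (adjusted p = 0.00185). Gm30173 (chr3:52516964-52550219, plus strand), 163743 bases from Foxo1, rose by 0.42 ± 0.11 (adjusted p = 0.00554) and by 0.48 ± 0.11 (adjusted p = 0.00176). Snhg18 (chr15:32240565-32244662, minus strand), which hosts Snord123 and starts 148 bases from Sema5a on the opposite strand, had medians of 3.36 and 4.76 CPM in Ctr and 3.30 and 5.22 CPM in αGlu cells. It rose by 0.43 ± 0.12 (adjusted p = 0.00861) and by 0.60 ± 0.12 (adjusted p = 0.000614). Called in Ctr and not in αGlu cells were Gm26797, 9130016M20Rik, 5330413P13Rik, Gm10451, Gm20939, Gm20300 and 4632404H12Rik among the raised, while 1700096K18Rik and Gm47204 were called higher in αGlu and not in Ctr cells. A call in 1 comparison and not in the other does not show a difference, which has its own test.

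Gm47204 (chr9:44477928-44479759, minus strand) rose by 0.50 ± 0.17 in αGlu PA (adjusted p = 0.0325). It lies on the opposite strand of C030014I23Rik, which shares 98.6% of its exon bases, and whether counting used strand is not given. Its call was lost without αGlu BSA replicate 6, 14 or 22 or αGlu PA replicate 12, 16 or 20, at log2 fold changes of 0.45 to 0.50. With the sets as a block Gm47204 was at 0.51 ± 0.17 (edgeR adjusted p = 0.0254).

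The 3 members lowered in both PA comparisons were Gm42031, 5430416N02Rik and Gm20342. Gm42031 (chr8:85125872-85132289, minus strand), 2777 bases from Zfp791, had 13.4, 16.6 and 21.5 CPM in Ctr BSA and 8.81, 10.5 and 13.4 CPM in Ctr PA. It had 12.03, 17.3 and 21.1 CPM in αGlu BSA and 8.53, 10.9 and 14.6 CPM in αGlu PA. The PA libraries were the lower ones, with a narrow overlap. It fell by 0.63 ± 0.14 (adjusted p = 0.00184) and by 0.63 ± 0.14 (adjusted p = 0.00203), by nearly the same amount in each batch (−0.64 and −0.63 in Ctr).

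5430416N02Rik (chr5:100420842-100429535, minus strand), 4608 bases from Sec31a, had medians of 10.5 and 8.21 CPM in Ctr BSA and Ctr PA, and 12.1 and 8.14 CPM in αGlu BSA and αGlu PA. It fell by 0.47 ± 0.14 (adjusted p = 0.0125) and by 0.60 ± 0.14 (adjusted p = 0.00191). Gm20342 (chr1:63117118-63126837, plus strand, 1 exon of 9720 bases), 2451 bases from the chromatin remodelling gene Ino80d, had medians of 16.8 and 12.8 CPM in Ctr and 15.97 and 12.1 CPM in αGlu cells. It fell by 0.40 ± 0.10 (adjusted p = 0.00362) and by 0.38 ± 0.10 (adjusted p = 0.00536), while Ino80d was at −0.05 and −0.08.

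Gm15728 (chr5:117389139-117393498, plus strand), 92 bases from the start of the replication factor gene Rfc5, had 5.69, 8.07 and 10.1 CPM in Ctr BSA and 3.35, 5.41 and 5.71 CPM in Ctr PA, ranges that overlapped only between 5.69 and 5.71 CPM. It fell by 0.72 ± 0.13 (adjusted p = 0.000202). In αGlu cells its medians were 6.57 and 5.67 CPM (log2 fold change −0.28 ± 0.13, adjusted p = 0.118). Rfc5 was at 0.19 (adjusted p = 0.0998) in Ctr PA.

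Further decreases were called, some of them near the threshold. Gm16973 (chr14:56696280-56701268, minus strand), antisense to part of Mphosph8, fell by 0.44 ± 0.11 in αGlu PA (adjusted p = 0.00294) and was at −0.28 ± 0.11 in Ctr PA (adjusted p = 0.05004, and 0.0203 with the sets as a block). Ftx (chrX:103560907-103623790, minus strand), a regulator of Xist, fell by 0.25 ± 0.08 in αGlu PA (adjusted p = 0.0156) and was at −0.14 ± 0.08 in Ctr PA (adjusted p = 0.169).
Gm30122 fell by 0.32 ± 0.10 in Ctr PA (adjusted p = 0.0213), and without Ctr PA replicate 11 it was at −0.25 and not called. Gm49745 fell by 0.43 ± 0.15 in Ctr PA (adjusted p = 0.0371), a call lost without Ctr BSA replicate 1, 9, 13 or 21 or Ctr PA replicate 3, 7, 11, 15 or 19, at −0.42 to −0.36. Gm48604 fell by 0.36 ± 0.13 in Ctr PA (adjusted p = 0.0401), a call lost without Ctr BSA replicate 9, 13, 17 or 21 or Ctr PA replicate 3, 7, 15, 19 or 23, at −0.37 to −0.31. Gm50353 (chromosome 18) fell by 0.44 ± 0.15 in αGlu PA (adjusted p = 0.0368), a call lost without αGlu BSA replicate 2, 10 or 22 or αGlu PA replicate 8, 12, 16, 20 or 24, at −0.45 to −0.36. With the sets as a block, the edgeR adjusted p in Ctr PA was 0.0248 for Gm30122, 0.0175 for Gm49745 and 0.0469 for Gm48604. For Gm50353 in αGlu PA it was 0.0148. The remaining decrease was 4732496C06Rik in Ctr cells.

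Bc1 was called lower in Ctr PA, but 1 library carried it. It had 13.9, 20.5 and 149 CPM in Ctr BSA, where the highest value was replicate 1 and the next 32.1 CPM, and 8.19, 13.3 and 36.7 CPM in Ctr PA. The log2 fold change was −1.31 ± 0.48 (adjusted p = 0.0400), and −0.30 (adjusted p = 0.419) without that library. The call was also lost without Ctr PA replicate 3, 7, 11, 15 or 19, at −1.33 to −1.14. In αGlu cells Bc1 had medians of 15.4 and 15.6 CPM (−0.13 ± 0.47).

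Malat1 moved with the same library. It had 1469, 1531 and 4287 CPM in Ctr BSA and 1424, 1668 and 2059 CPM in Ctr PA, with 1963 CPM as the highest Ctr BSA value apart from replicate 1. In αGlu cells it had 1418, 1506 and 1650 CPM in BSA and 1490, 1746 and 1981 CPM in PA. It was at −0.22 ± 0.18 in Ctr PA (adjusted p = 0.38) and at 0.22 ± 0.18 in αGlu PA (adjusted p = 0.388), and without Ctr BSA replicate 1 the value in Ctr PA was 0.10. Of 22 nuclear speckle proteins, 2 rose and 5 fell in Ctr PA and 2 rose and 9 fell in αGlu PA. Their median log2 fold changes were −0.07 and −0.11. Of all genes, 15.5% were higher and 14.5% lower in Ctr PA, and 14.4% higher and 14.2% lower in αGlu PA. Srsf5, a splicing factor, rose by 0.31 and 0.24, and the kinase Clk1, which phosphorylates such factors, fell by 0.28 and 0.37. Of 19 tested nuclear RNA decay factors, 3 rose and 2 fell in Ctr PA and 3 rose and 3 fell in αGlu PA, Zcchc8 of the nuclear exosome targeting complex falling by 0.31 and 0.28.

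Norad and Oip5os1 were at nearly 0 with narrow errors, and the other members given here were not called in the fit with batch as a term. Norad had 282, 352 and 372 CPM in Ctr BSA and 307, 345 and 396 CPM in Ctr PA, a log2 fold change of 0.02 ± 0.05 (adjusted p = 0.831), and −0.05 ± 0.05 in αGlu cells. Oip5os1 had medians of 84.02 and 77.3 CPM in Ctr and 77.6 and 79.0 CPM in αGlu cells, with log2 fold changes of 0.01 ± 0.08 in both. Mirg (chr12:109729764-109749460, plus strand), the imprinted neighbour of Meg3 that hosts 14 hairpins, was at −0.14 ± 0.08 (adjusted p = 0.199) and −0.09 ± 0.08.
A230057D06Rik (chr7:61704519-61928690, minus strand), 417879 bases from the imprinted gene Ndn and host of the miR-344 family, was at 0.22 ± 0.09 (adjusted p = 0.0573) and 0.21 ± 0.09 (adjusted p = 0.072), and passed in both with the sets as a block (adjusted p = 0.0115 and 0.0128). Trp53cor1 (lincRNA-p21), a p53 target 11797 bases from Cdkn1a, was at 0.07 ± 0.13 and 0.35 ± 0.13 (adjusted p = 0.0521), while Cdkn1a fell by 0.35 and 0.31. Jpx, an activator of Xist, was at 0.12 ± 0.16 and 0.24 ± 0.16.
AI480526, Dbpht2, Gm37494, Gm46620 and Gm47283, the remaining members among the 12 of largest count, were between −0.16 and 0.16 in both comparisons, and none passed, while Gm46620 did in Ctr PA with the sets as a block (−0.16 ± 0.05, adjusted p = 0.0209).

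The lists of known noncoding RNAs are small. Their counts stand beside 30% of all genes called in Ctr PA (15.5% higher and 14.5% lower) and 28.5% in αGlu PA (14.4% higher and 14.2% lower). Of 10 tested nuclear and chromatin lincRNAs, 2 rose in Ctr PA, Neat1 and Firre, and 2 rose and 1, Ftx, fell in αGlu PA. Of 10 tested growth, p53 and stress lincRNAs, 1 rose and 1 fell in Ctr and 1 rose in αGlu cells. Of 7 imprinted lincRNAs none rose and 1 fell in each, and of 7 neuronal and neuroendocrine lincRNAs 1 rose and 1 fell in each. Of 10 microRNA hosts 1 rose and 3 fell in Ctr and 2 rose and 2 fell in αGlu cells.

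Libraries are mixtures of cell types, and fewer cells of a type and less RNA per cell cannot be told apart. The summed level of 8 fibroblast and stellate cell markers was 88.6 to 1079 CPM (median 277) in BSA and 11.2 to 172 CPM (median 34.02) in PA libraries. Of its 7 tested markers, 6 were called lower in Ctr PA and 4 in αGlu PA, beside 14.5% and 14.2% of all genes lower. These shares also stand beside the acinar and macrophage counts that follow. Of 9 acinar markers 7 and 6 were called lower, from a median sum of 3066 CPM in BSA to 1835 CPM in PA. Of 8 macrophage markers 6 were called lower in Ctr PA and 1 in αGlu PA, with summed medians of 142 CPM in BSA and 99.3 CPM in PA. Of 10 beta cell markers 3 rose and 3 fell in Ctr PA, beside 15.5% of all genes higher and 14.5% lower. The part of these markers in the members' changes was not tested.

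The αGlu ASO gave no call. In BSA 0 of the 100 members passed (all genes 0%), 4 had an unadjusted p below 0.05 (all genes 2.9%), and DESeq2 called 0, with 3 at an unadjusted p below 0.05. In PA 0 members passed (all genes 0%), 2 had an unadjusted p below 0.05 (all genes 3.38%), and DESeq2 called 0, with 2. The median log2 fold changes of the members were −0.02 in BSA and −0.04 in PA, and 93 and 96 members lay within 0.25 of 0. In BSA 1 member, Bc1, passed a fold of 2 at an unadjusted p below 0.05 (all genes 0.785%). With the sets as a block 0 members passed in BSA (all genes 0.0565%) and 0 in PA (all genes 0%), and edgeR then gave 6 and 2 members an unadjusted p below 0.05. No member had groups without overlap in either comparison, beside 0.0754% and 0.226% of all genes.

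In BSA the members of smallest p were Gm26797, Bc1 and Gm47283. Gm26797 (chr9:122295869-122310928, minus strand), 1446 bases from Ano10, had 1.84, 2.48 and 3.96 CPM in Ctr BSA and 2.76, 3.60 and 5.71 CPM in αGlu BSA, at 0.54 ± 0.16 (unadjusted p = 0.00266 and edgeR adjusted p = 0.652). Bc1 was at −1.28 ± 0.47 in BSA and at −0.24 without Ctr BSA replicate 1. Malat1 was at −0.41 ± 0.18, and at −0.08 without that library. Gm47283, which lies in the region shared by the X and Y chromosomes, had medians of 96.1 and 79.6 CPM (−0.26 ± 0.10, edgeR adjusted p = 1).

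In PA the members of smallest p were Erdr1, Gm48604 and Gm13003. Erdr1, in the region shared by both sex chromosomes, had medians of 4.66 CPM in Ctr PA and 3.08 CPM in αGlu PA (−0.55 ± 0.23, edgeR adjusted p = 0.993), with overlap. Gm48604 was at 0.29 ± 0.13 and Gm13003 at 0.29 ± 0.16, both with an edgeR adjusted p of 0.993. Neat1 was at −0.14 ± 0.09 in BSA and 0.00 ± 0.09 in PA.

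The response to PA was not shown to differ between the ASOs for any member. The test of the difference called 0 of the 100 members (edgeR; all genes 0%), 2 had an unadjusted p below 0.05 (all genes 2.09%), and DESeq2 called 0, with 2. With the sets as a block edgeR also called 0 (all genes 0%), with 2 at an unadjusted p below 0.05. Gm26797 had the smallest p: it rose by 0.94 ± 0.16 in Ctr cells (adjusted p = 0.000102), where all PA libraries (4.30 to 6.56 CPM) were above all BSA libraries. In αGlu cells it had 3.24, 4.40 and 8.61 CPM in PA against 2.76, 3.60 and 5.71 CPM in BSA (0.32 ± 0.16, adjusted p = 0.132). The difference of both responses was −0.62 ± 0.23 (edgeR, unadjusted p = 0.0110 and adjusted p = 0.999), at −0.29 in batch 1 and −0.96 in batch 2. The Gm15728 responses differed by 0.45 ± 0.19 (edgeR, unadjusted p = 0.0242) and those of Gm47204 by 0.45 ± 0.24 (edgeR, unadjusted p = 0.0798), both with an adjusted p of 0.999. The value for Gm47204 was −0.01 in batch 1 and 0.88 in batch 2.

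**Figure D4:**
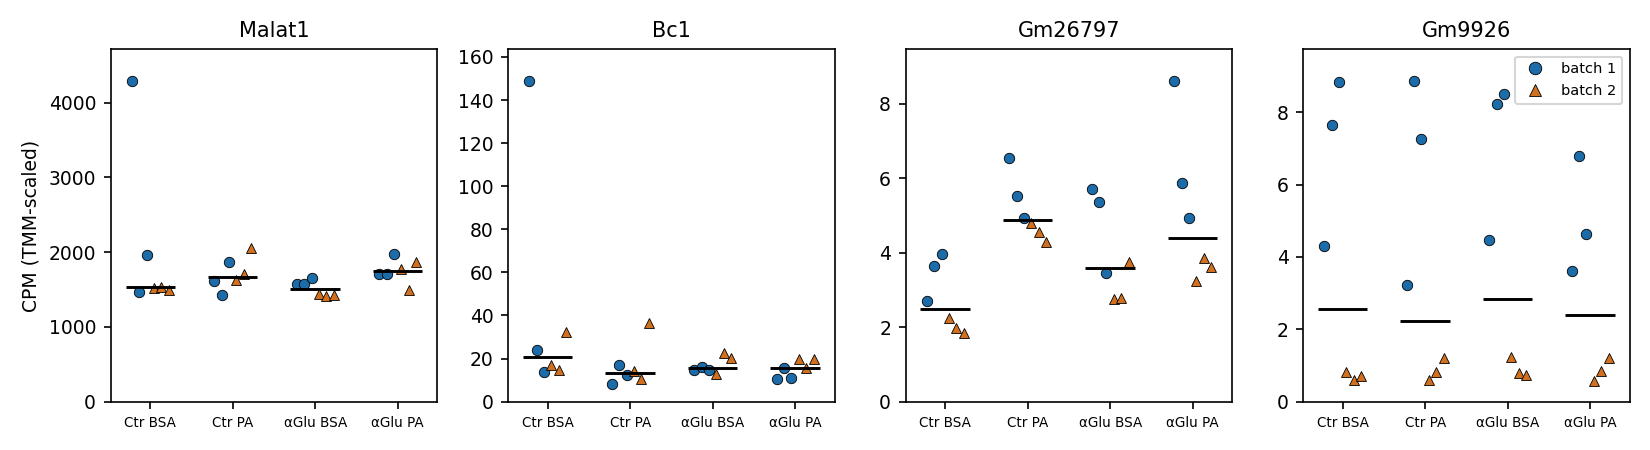
CPM (scaled by TMM, linear axes from 0) of 4 lincRNAs by library and group, with circles for batch 1, triangles for batch 2 and bars at group medians. Malat1 and Bc1 each have 1 high library, Ctr BSA replicate 1 (4287 and 149 CPM); Gm26797 is higher in Ctr PA than in Ctr BSA, and Gm9926 is near 1 CPM in all batch 2 libraries.

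Members also differed between the batches. Between batch 2 and batch 1, 57 of the 100 passed an adjusted p of 0.05, 44 higher and 13 lower, beside 51.5% of all genes (26.1% higher and 25.4% lower). This test counts each library as independent. With the counts summed over each set, 3 sets against 3, 33 members passed, 25 higher and 8 lower, beside 33% of all genes, and all 33 were among the 57. Norad, A230057D06Rik, AI480526, Snhg18, Snhg20, Gm20554 and 9130016M20Rik were among the 24 members not called then. The median log2 difference of the members was 0.13, beside 0.00 for all genes. A fold above 2 at an unadjusted p below 0.05 was reached by 5 members (all genes 6.38%). The groups are balanced over both batches, and PA and batch comparisons share all libraries, so their values are given side by side. The cells themselves differed between batches by markers: all 10 beta cell markers were called higher (9 with the sets summed) and all 9 acinar markers lower in batch 2, where the acinar sum was 229 to 612 CPM against 3121 to 23049 CPM in batch 1. Of 8 markers of alpha, delta and PP cells, 7 were lower (6 with the sets summed). The part of these cell types in the members' differences was not tested.

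Gm9926 (chromosome 18) differed most. It had 3.22, 7.02 and 8.86 CPM in batch 1 and 0.573, 0.812 and 1.22 CPM in batch 2, with no overlap, a log2 difference of −2.90 ± 0.20 (edgeR adjusted p = 1.91e-11). With the sets summed Gm9926 was at −2.89 ± 0.28 (edgeR adjusted p = 0.000722). Its nearest coding gene Pmaip1, a p53 target that promotes cell death, 38613 bases away, was at −2.66 (adjusted p = 3.79e-11). With PA, Gm9926 was at 0.04 ± 0.27 in Ctr and −0.32 ± 0.27 in αGlu cells and did not pass.

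The members of smallest p that were higher in batch 2 were Gm30173, Gm49542, Gm17767, Gm50353 and Gm30648. Gm30173 had 5.41, 9.80 and 12.1 CPM in batch 1 and 14.2, 18.3 and 22.5 CPM in batch 2 (1.02 ± 0.08, adjusted p = 1.08e-10), with no overlap. Gm49542 (chr14:79898467-79907230, plus strand), 76851 bases from Olfm4, had 19.6 to 28.9 CPM and 35.2 to 47.1 CPM (0.77 ± 0.06, adjusted p = 3.94e-10), and Olfm4 differed by 0.75. Gm50353 had 4.13 to 9.34 CPM and 11.6 to 22.7 CPM (1.17 ± 0.11, adjusted p = 4.09e-09). With the sets summed, the edgeR adjusted p was 0.00092 for Gm30173, 0.000907 for Gm49542 and 0.00115 for Gm50353.
Gm17767 was higher by 1.04 ± 0.09, Gm34759 by 0.93 ± 0.11, Gm30648 by 0.83 ± 0.08, Mir670hg by 0.81 ± 0.10, Gm36543 by 0.76 ± 0.10 and Gm45847 by 0.64 ± 0.09, all with an adjusted p below 0.05, also with the sets summed. For Gm17767 the PA response was 1.78 in batch 1, from a low level, and 1.18 in batch 2 in Ctr cells. Neat1, in contrast, was at 0.05 ± 0.07 between batches. Mirg was higher by 0.33 ± 0.06, Norad by 0.14 ± 0.04 and Gm13003 by 0.58 ± 0.11. A230057D06Rik was higher by 0.15 ± 0.06 (adjusted p = 0.042), and lost this call without any of 14 single libraries (Ctr BSA 1, 5, 9, 13, 17 or 21, Ctr PA 7 or 23, αGlu BSA 6, 14 or 22, αGlu PA 8, 16 or 24), at 0.12 to 0.15.

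Several listed hosts of snoRNAs were lower in batch 2. Such hosts carry snoRNAs in their introns, and many begin with a pyrimidine tract that couples them to ribosome synthesis. Of the 5 on the list that were members, 4 hold an annotated snoRNA, and Snhg20, listed by its name, holds none here. Snhg12, Snhg6, Snhg15 and Snhg20 were lower in batch 2 and Snhg18 was higher. In the whole list of 19 tested hosts, 15 were lower and 3 higher in batch 2, beside 25.4% of all genes lower and 26.1% higher. The median of the list was −0.43. With the sets summed 12 were lower and 2 higher, beside 33% of all genes called in either direction. Snhg20 (adjusted p = 0.116) and Snhg18 (adjusted p = 0.119) did not pass then. Snhg12 (chr4:132308623-132311024, plus strand), which holds Snora16a, Snora44, Snora61 and Snord99, had 16.5, 27.2 and 34.9 CPM in batch 1 and 10.8, 12.2 and 14.8 CPM in batch 2, with no overlap (−1.02 ± 0.09, adjusted p = 5.06e-10). Snhg6 was at −0.67 ± 0.11, Snhg15 at −0.36 ± 0.07, Snhg20 at −0.20 ± 0.07 and Snhg18 at 0.30 ± 0.09.
With PA, 4 of these 19 rose and none fell in Ctr cells, and the same count rose in αGlu cells, beside 15.5% and 14.4% of all genes higher, with medians of 0.14 and 0.19. Snhg18 was the member among them, since Snhg12 was at 0.16 ± 0.12 and 0.20 ± 0.12, Snhg6 at 0.26 ± 0.15 and 0.08 ± 0.15, Snhg15 at −0.20 ± 0.10 and −0.21 ± 0.10, and Snhg20 at −0.15 ± 0.10 and 0.09 ± 0.10, none of which passed, while Snhg12 passed in αGlu PA with the sets as a block (0.21 ± 0.06, adjusted p = 0.0139). Other members lower in batch 2 included Gm26797 (−0.65 ± 0.11), 5430416N02Rik (−0.57 ± 0.10), Gm15728 (−0.39 ± 0.09) and Dbpht2 (−0.30 ± 0.06).

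**Figure D5:**
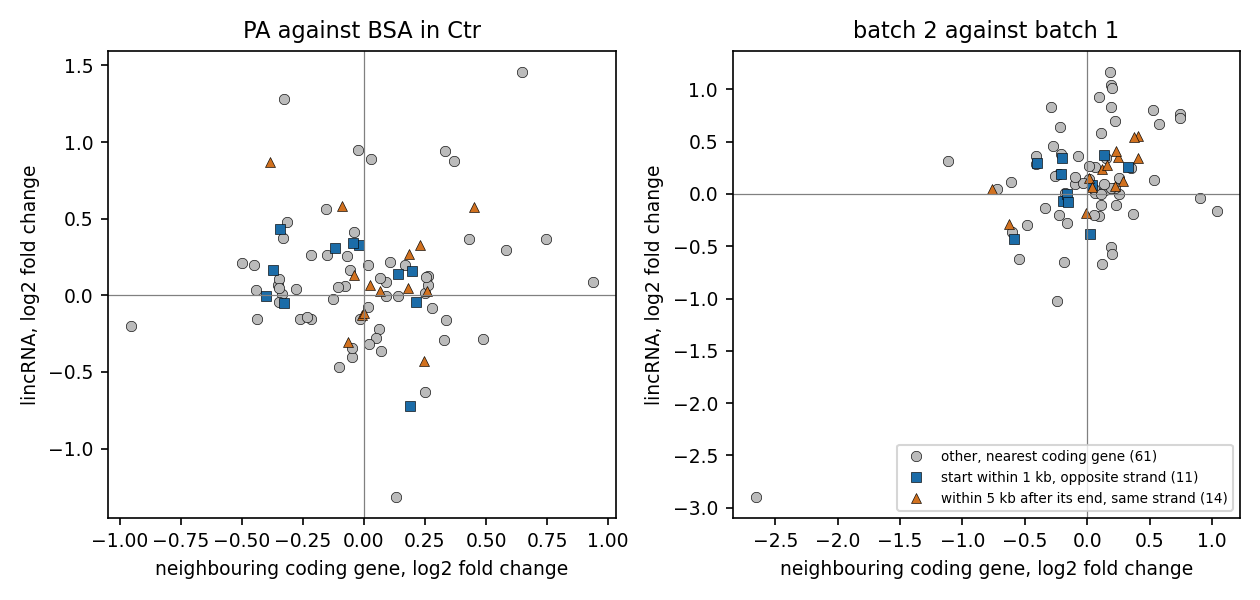
Log2 fold change of lincRNAs (y axis) against that of a neighbouring coding gene (x axis), for PA against BSA in Ctr cells (left) and batch 2 against batch 1 (right), for the 86 members whose neighbour was tested. Triangles are members up to 5 kb after the end of a coding gene on the same strand (14), squares start within 1 kb of a coding gene on the opposite strand (11), and circles are the others (61); at the right, the 8 triangle pairs in which both genes were called lie on the same side of 0 on both axes, and at the left 2 of 4 do.

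Position beside a coding gene was compared with these values. Members that lie within 5 kb after the end of a coding gene on the same strand numbered 14, of which 8 have 1 exon only. Members that start within 1 kb of a coding gene's start on the opposite strand numbered 11, and 75 were in other positions. Between batches, 8 of the 14 had a call together with their upstream gene, all 8 in the same direction, beside 51.5% of all genes called singly. How often neighbouring genes are called together over all genes was not computed, here and for the pairs below. The Spearman correlation over the 14 pairs was 0.81 (Pearson 0.71). With the sets summed, 2 pairs had a call together, both in the same direction, beside 33% of all genes called singly. These are descriptions over pairs that share libraries, and where the reads of such members start was not tested.
With PA in Ctr cells the Spearman correlation was −0.15 over the 14 pairs, and of 4 pairs called together 2 had the same direction. With PA in αGlu cells it was 0.24, and the 1 pair called together had the same direction. The values of this class include Gm27033, which was higher in batch 2 by 0.54 ± 0.11 (adjusted p = 0.000152, and 0.0155 with the sets summed) beside Pdx1 at 0.37, and did not pass with PA (0.13 ± 0.15 and −0.13 ± 0.15). 9130016M20Rik rose in Ctr PA by 0.58 ± 0.15 beside A1cf at 0.45. Neat1, in the same position class, rose while Frmd8 fell.
Among the 11 members that share a start region with a coding gene, 3 were called in Ctr PA (all genes 30%) and none together with the coding gene (Spearman −0.29 over 11 pairs, and −0.13 in αGlu PA). Between batches 5 of these pairs were called together, 3 in the same direction (Spearman 0.21, Pearson 0.37), and none with the sets summed. Gm20554 was lower in batch 2 by 0.43 ± 0.13 (adjusted p = 0.00824, and 0.0865 with the sets summed) beside Irx2 at −0.59. For the other 61 pairs the Spearman correlation was 0.04 with PA in Ctr cells (Pearson 0.11) and −0.04 in αGlu cells (Pearson 0.04), and 5 of 8 and 3 of 6 pairs called together had the same direction. Between batches these 61 pairs had a Spearman correlation of 0.21 and a Pearson correlation of 0.55, and of 26 pairs called together 19 had the same direction (8 of 14 with the sets summed). The difference between the position classes was not tested.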

How the data were processed

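Dispersed mouse islet cells were profiled by mRNA sequencing (stranded Illumina mRNA kit, AVITI sequencer), with 24 libraries in 4 groups of 6. The authors deposited raw counts per gene, RPKM, TPM and CPM in 1 table, made with the QIAGEN RNA-seq Analysis Portal 5.1, with GRCm38 named in the submitters' processing notes. No source used here names the aligner, annotation release or strand setting. The deposited RPKM and TPM values were used for levels and their order only, and the 24 CPM columns were not used.

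Counts were tested with edgeR 4.0.16 (TMM, quasi-likelihood, filterByExpr with a minimum count of 10, R 4.3.3) in 1 fit of 4 groups with batch as a term, with Benjamini-Hochberg adjustment over 15916 genes. The common biological coefficient of variation was 15.4%. The test was checked on simulated data in which all libraries were independent. Those data held no effect of sets, so the check cannot speak to libraries of a set deviating together. Alternatives included DESeq2 1.42.0. The planned omission of the rows Gm42418, AY036118 and Gm26917 was not run and those rows are not used here. Omission of all rRNA rows, chosen after seeing the data, took its place. Totals of 18214719 to 35001979 counts limit low rows. The libraries come from experiments described as independent, and p-values measure the spread between these libraries. Fits with 6 sets of 4 consecutive sample numbers as a block, and with counts summed over each set, were chosen after seeing the data.

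The members and lists were chosen with earlier results of these data known. Members named were the 12 of largest count, those on a role list, and, per comparison, the 6 of smallest p in each direction among those called (5 for batch, 3 where none was called). Other called members are named to account for the counts, after their values were seen. Sequences came from RefSeq (GRCm38.p6) and GENCODE M21 and were matched by symbol or gene ID. Figures used matplotlib 3.10.9.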

Additional observations from a re-analysis of the deposited data

Results flagged for a closer look

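In 13 of 172 groups of 6 libraries (43 named lincRNAs in 4 groups), 1 library lay far from the others by Dixon's 95% limit, which chance alone flags in about 1 in 20 groups. In Ctr BSA replicate 1, Malat1 was at 4287 CPM against 1469 to 1963 CPM in the others, and Bc1 at 149 CPM against 13.9 to 32.1 CPM. In Ctr PA replicate 23, Bc1 was at 36.7 CPM (others 8.19 to 17.1), Gm37494 at 82.5 CPM (52.2 to 61.1) and Gm49745 at 5.98 CPM (2.96 to 3.57). In Ctr PA replicate 11, Gm30122 was at 4.46 CPM (others 5.80 to 6.39). In αGlu BSA replicate 6, A230057D06Rik was at 53.3 CPM (63.6 to 67.9) and Gm20342 at 14.1 CPM (15.9 to 16.7). In αGlu BSA replicate 10, the pseudoautosomal genes Erdr1 and Gm47283 were at 4.50 CPM (2.51 to 3.25) and 101 CPM (68.5 to 80.1). Erdr1 was also high in αGlu PA replicate 16, at 5.65 CPM (2.23 to 3.18). Gm48604 was at 3.61 CPM in αGlu BSA replicate 18 (4.50 to 4.97), and Dbpht2 at 91.2 CPM in αGlu PA replicate 4 (59.1 to 70.8).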

How the results depend on the processing

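The count of members called for PA in Ctr, 31, was 15 without the batch term, 20 with the 2 groups fitted alone, 14 in batch 1, 13 in batch 2, 11 with a fold above 1.5 added and 4 at a fold above 2 with an unadjusted p. It was 18 for the top 50 and 52 for the top 200 lincRNAs. For PA in αGlu, 23, these were 11 without the batch term, 9 and 13 in the batches, 10 and 3 with the fold limits, and 42 for the top 200. For αGlu in BSA the fold limit of 2 gave 1, Bc1. Between batches, 57, the fold limits gave 18 and 5, and the top 50 and top 200 gave 32 and 102. Fits of 1 batch and of 2 groups use fewer libraries, and for the other changes the cause was not tested. Leaving out each library in turn gave 24 to 32, 21 to 29 and 51 to 57 calls, and 0 for both αGlu comparisons and the difference of responses. The lowest counts came without Ctr PA replicate 3, αGlu PA replicate 12 and Ctr PA replicate 7. The median share of counts on members was then 0.377 to 0.378% in Ctr BSA, 0.413 to 0.430% in Ctr PA, 0.360 to 0.374% in αGlu BSA and 0.421 to 0.426% in αGlu PA, and without Malat1 it was 0.219, 0.245, 0.210 and 0.245%. Of 2209 alternative values for 68 results on named lincRNAs, 2097 kept direction and side of the threshold, 111 lost the call and 1 reversed, the difference of PA responses of Gm47204, at −0.0117 in batch 1 alone. DESeq2, upper-quartile scaling, a stricter filter and omission of rRNA rows changed none of the 68. The groups share no replicate numbers, but libraries of a set of 4 consecutive numbers deviated together from the means of their group and batch (correlations of 0.02 to 0.37 in 36 pairs, 25 above 0.1, against −0.31 to 0.12 in 72 pairs of different sets). A replicate block by these sets, chosen after seeing the data, gave 34, 30, 0, 0 and 0 calls for PA in Ctr, PA in αGlu, αGlu in BSA, αGlu in PA and the difference of responses. Counts summed by set gave 33 calls between batches. A member at few counts, such as Gm9926, allows only large differences to be called.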
